A study of Homo sapiens with 8 samples.

Results

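The comparison described here sets IGR-N91 aggregates kept in medium conditioned by mouse sympathetic ganglia (E15.5-mSGcm) against aggregates kept in control medium. It rests on 4 of the 8 RNA-seq libraries of the series, 2 for each medium, chosen by the culture condition in their labels. IGR-N91 is an established line of human neuroblastoma (NB), a childhood tumor of the sympathetic lineage, and all libraries come from this 1 line. The cells were grown as hanging drop aggregates and collected 20 h after the medium was added, according to the labels (the results text of the study gives another time). E15.5-mSGcm is medium in which sympathetic ganglia of E15.5 (embryonic day) mouse embryos had been cultured, and the control medium had held no tissue. The other 4 libraries come from aggregates in medium of embryonic day 8 chick sympathetic ganglia (E8-cSGcm) or chick dorsal root ganglia (E8-cDRGcm). Their values are given below only where the mouse medium is set directly against them. All 8 libraries were fitted together, however, so the chick libraries also enter the filter, the scaling and the spread behind every test. The labels do not say whether the 2 libraries of a medium come from separate cultures, so the p-values measure the spread between these libraries, which may be technical.

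The E15.5-mSGcm libraries were the shallowest of the 8, with 7930765 and 8937397 counts against 12926136 and 15060744 in control medium. A count of 3 corresponded to 0.384 and 0.343 CPM in E15.5-mSGcm and to 0.229 and 0.197 CPM in control medium, where CPM is the read count of a gene divided by the depth of its library, scaled by TMM (the trimmed mean normalization of edgeR). Across genes, which are not independent replicates, log2 CPM of the replicate libraries correlated with r of 0.993 in control medium and 0.989 in E15.5-mSGcm. A transcript was called at a Benjamini-Hochberg adjusted p under 0.05 in the quasi-likelihood test of edgeR together with a fold change of at least 1.5. An exact permutation of 2 against 2 libraries could not go below p = 0.333, so that the tests rest on the spread shared by all genes and by the 4 groups. In RNA of whole aggregates, fewer cells that express a gene and less RNA of it per cell cannot be told apart.

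NF-kB is a family of transcription factors. Inhibitors, the classical IkB proteins, hold them in the cytoplasm. Inflammatory signals, such as those of TNF receptors, lead to destruction of these inhibitors. Many targets of NF-kB encode its own inhibitors, adhesion receptors and chemokines. Replication-dependent histones package newly made DNA and are transcribed chiefly during S phase, and their mRNAs end in a conserved stem-loop instead of a poly(A) tail. Sympathetic neurons and many NB cells make catecholamines from tyrosine through tyrosine hydroxylase (TH) and dopamine beta-hydroxylase (DBH) and load them into vesicles through the VMAT transporters.

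Compared to control medium, E15.5-mSGcm gave 1109 upregulated and 1213 downregulated transcripts of 16680 tested, 6.65% and 7.27% of them. The median log2 fold change over all tested genes was -0.02. At least 4-fold changes were found in 188 upregulated and 128 downregulated transcripts. Set directly against the chick media, 627 of the upregulated transcripts were also higher than in both E8-cSGcm and E8-cDRGcm, and 623 of the downregulated ones were lower than in both. Over all tested genes, 10.2% were higher and 12.1% lower in the mouse medium than in E8-cSGcm (22.3% in all), and 13.1% were higher and 13.1% lower than in E8-cDRGcm (26.2% in all).

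**Figure D1:**
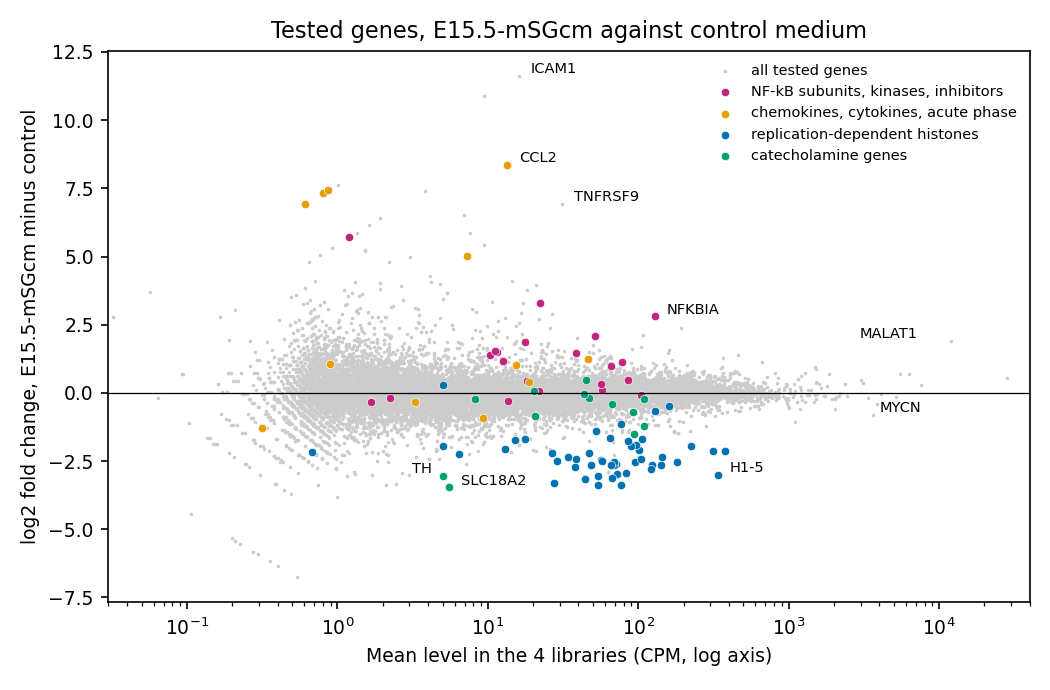
Each point is 1 tested gene, with its mean level in the 2 control and 2 E15.5-mSGcm libraries on the horizontal log axis (CPM) and its log2 fold change (E15.5-mSGcm minus control) on the vertical axis. The histone genes (blue) sit together below 0, and ICAM1, CCL2 and TNFRSF9 lie near the upper edge of the points.

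Among protein-coding transcripts with a mean of at least 5 CPM, the highest fold changes included an adhesion receptor, a chemokine and a TNF receptor. ICAM1, the ligand on the cell surface to which leukocyte integrins bind (ENSG00000090339, chromosome 19, 10271120 to 10286615; positions are those of RefSeq on GRCh38), had no read in either control library and 32.2 and 31.9 CPM in E15.5-mSGcm. This made it at least 150.1-fold higher, counting 3 reads for each control library (edgeR adjusted p = 1.55e-21). CCL2, the chemokine that attracts monocytes (ENSG00000108691, chromosome 17, 34255285 to 34257203), was at 0.153 and 0 CPM in control medium and 26.9 and 26.5 CPM in E15.5-mSGcm (edgeR adjusted p = 1.78e-20). With 2 reads in control medium and 442 in E15.5-mSGcm, its ratio was 378 with an exact 95% interval for counting error from 104 to 3127. TNFRSF9, the TNF receptor 4-1BB (ENSG00000049249, chromosome 1, 7915871 to 7940839), was at 0.612 and 0.395 CPM in control medium and 57.5 and 65.3 CPM in E15.5-mSGcm (log2 fold change 6.93, SE 0.195, edgeR adjusted p = 6.78e-26). Genes entered this ranking only if both E15.5-mSGcm libraries lay beyond both control libraries, so this separation was set by the rule. The mean of at least 5 CPM was likewise reached through E15.5-mSGcm. ICAM1 and CCL2 also passed the filter on low counts only through their reads in that medium.

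The 10 highest fold changes also held genes of other functions, and the 10 lowest belonged to SLC18A2, TH and 8 histone genes. RANBP3L (ENSG00000164188, chromosome 5, 36246913 to 36301902) was unread in the control libraries and stood at 12 and 25.7 CPM in E15.5-mSGcm, at least 88.5-fold higher (edgeR adjusted p = 0.00415). Its 2 E15.5-mSGcm libraries differed widely, and in a fit of the 4 libraries alone it did not pass (edgeR adjusted p = 0.134). TLR7, the endosomal receptor for single-stranded RNA (ENSG00000196664, chromosome X, 12867072 to 12890361), was at 0 and 0.263 CPM in control medium and 11.9 and 15.8 CPM in E15.5-mSGcm (log2 fold change 6.52, SE 0.42, edgeR adjusted p = 9.59e-15). PRRX1, a homeobox factor of mesenchymal cells (ENSG00000116132, chromosome 1, 170662768 to 170739421), was at 0 and 0.46 CPM in control medium and 13.6 and 16.6 CPM in E15.5-mSGcm (log2 fold change 5.88, SE 0.387, edgeR adjusted p = 9.07e-14). Both genes were close to no read in control medium. RANBP3L, TLR7 and PRRX1 passed the filter on low counts only through their reads in E15.5-mSGcm. TFPI2, a protease inhibitor of the extracellular matrix, rose 44.6-fold from 0.229 and 0.592 CPM in control medium to 15.6 and 21 CPM in E15.5-mSGcm (edgeR adjusted p = 1.05e-17). BDKRB2, the bradykinin B2 receptor, rose 17.1-fold from 1.53 and 1.64 CPM in control medium to 24.2 and 30.1 CPM in E15.5-mSGcm (edgeR adjusted p = 2.97e-19), and PCDH8, a protocadherin, rose 15.2-fold (edgeR adjusted p = 3.34e-18). All 10 transcripts at the top of the ranking, CXCL12 below included, were higher than in both chick media as well, where the levels of TNFRSF9 were 2.81 and 2.1 CPM in E8-cSGcm and 6.73 and 5.57 CPM in E8-cDRGcm.

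Markers of the cell types that a ganglion could release were examined beside these genes. The files give reads per human gene identifier and not the species of a read. Of 7 tested fibroblast markers (of 8 listed), 4 were upregulated and 1 was downregulated. PDGFRA went from 1.07 and 0.526 CPM in control medium to 8.58 and 11.1 CPM in E15.5-mSGcm (log2 fold change 3.65, SE 0.298, edgeR adjusted p = 1.40e-12), DCN from 2.75 and 2.76 CPM in control medium to 13.7 and 13.5 CPM in E15.5-mSGcm, COL1A2 from 3.13 and 3.09 CPM in control medium to 10.8 and 14.3 CPM in E15.5-mSGcm and LUM from 50 and 54.5 CPM in control medium to 108 and 92 CPM in E15.5-mSGcm. COL1A1, by contrast, fell from 99.1 and 113 CPM in control medium to 31.9 and 28.4 CPM in E15.5-mSGcm (log2 fold change -1.82, SE 0.0887, edgeR adjusted p = 5.91e-16), and TWIST2 had no read. The summed level of the list was 477 and 519 CPM in control medium and 419 and 414 CPM in E15.5-mSGcm. Of the Schwann cell and satellite glia list, SOX10, FABP7 and FOXD3 had no read in any of the 4 libraries, and the list summed to 1.53 and 1.12 CPM against 2.43 and 3.31 CPM, with ERBB3 as the 1 member upregulated. The leukocyte list summed to 0.688 and 0.921 CPM against 2.05 and 1.03 CPM, with AIF1 and TYROBP at 0. The endothelial list summed to at most 1.07 CPM and the erythroid list to at most 0.256 CPM in these libraries, with CDH5 and HBB at 0. Of the sensory neuron list, which summed to 3.29 and 4.80 CPM in control medium and 1.67 and 1.26 CPM in E15.5-mSGcm, 1 member was tested and was downregulated. The part of cells or RNA of the ganglia in the results was not tested. The labelled identity of the cells was visible in all 4 libraries: HAND2 was at 741 and 711 CPM in control medium and 526 and 516 CPM in E15.5-mSGcm, PHOX2A, GATA3, ISL1 and DBH were read in each of them, and CHGA had no read.

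The response was then read over 32 gene lists that name signalling pathways, metabolic pathways, stress responses and neuronal functions. Of tested members, 57.1% of the NF-kB list and 38.5% of the mitochondrially encoded subunits were upregulated. The share of the chemokine and cytokine list was 58.3%, but 4 of its 7 upregulated members were close to no read in control medium and passed the filter on low counts through their reads in E15.5-mSGcm. CXCL12, with 2 and 10 reads in control medium, also needed its E15.5-mSGcm reads to pass. So did TNFAIP3 of the NF-kB list, with 1 and 0 reads in control medium. The largest shares downregulated belonged to replication-dependent histones (95.9%), the catecholamine list (46.2%) and the Notch list (31.3%). The lists of fatty acid synthesis, heat shock genes of HSF1 and snoRNA host genes had no called member among 13, 19 and 21 tested. Over all tested genes 6.65% were upregulated and 7.27% downregulated, and the counts of each list below are to be read beside these shares.

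**Figure D2:**
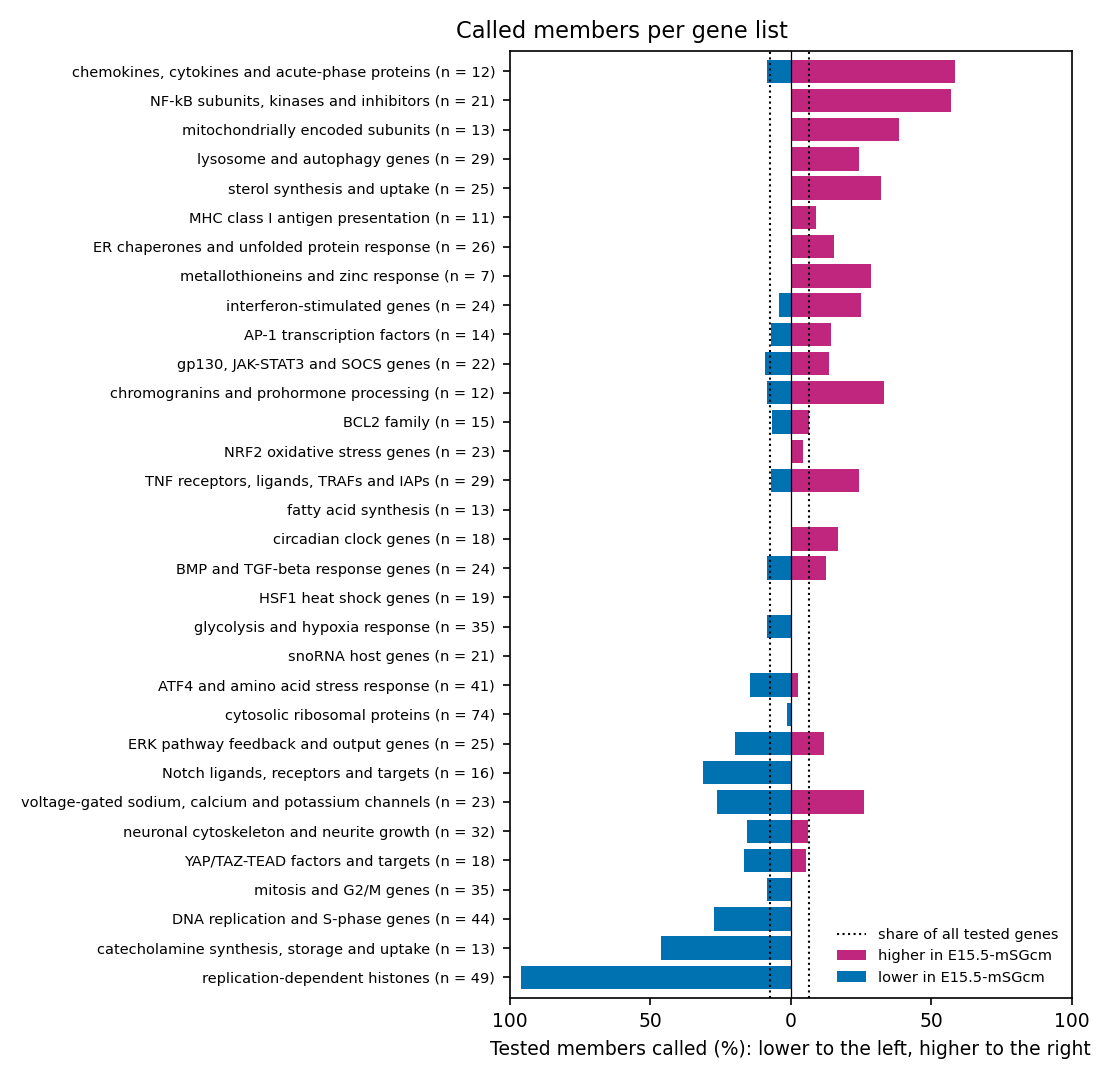
The share of tested members called higher (to the right) and lower (to the left) in E15.5-mSGcm than in control medium, in percent, for 32 gene lists ordered by their median log2 fold change, with the number tested in parentheses. Dotted lines give the shares over all tested genes, 6.65% and 7.27%. The histone bar reaches 95.9% to the left and the NF-kB bar 57.1% to the right.

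Genes of the NF-kB pathway rose in large part. Of 21 tested members of 23, 12 were upregulated and none was downregulated, beside 6.65% and 7.27% of all tested genes, and the median log2 fold change was 1.14 against -0.02 over all tested genes. TNFAIP3, counted among the 12, passed the filter on low counts through its reads in E15.5-mSGcm. Promoter windows of RefSeq (GRCh38.p14, from 250 bases before to 50 after the start) were searched on both strands for the NF-kB consensus, because these genes moved together. Of all 27305 windows, 10.8% held it, and of the 10812 windows of tested genes, 13% did. It stood in 15.4% of 664 windows of upregulated and in 15% of 801 windows of downregulated transcripts, so that a match was about as frequent in both directions. Of the NF-kB list, 6 of 10 windows of upregulated members and 0 of 8 windows of tested members that were not called held it. Members without a window, RELB and NFKBIE among the upregulated ones, are left out of these counts. The upregulated members whose windows held no match were NFKB2, IKBKE, NFKBID and CYLD. This was looked at after the values were seen and was not tested. Windows are given of the 3 list members with the highest fold changes. Those of the TNF receptor and the apoptosis inhibitor that rose with them are added. All run 5′ to 3′ on the strand of the gene, with the matches in capitals. The window of TNFAIP3 lies downstream of the start of the gene span given below, so it was drawn around another start. A match describes the letters and not binding.
NFKBIA (chr14:35404700-35404999, minus strand): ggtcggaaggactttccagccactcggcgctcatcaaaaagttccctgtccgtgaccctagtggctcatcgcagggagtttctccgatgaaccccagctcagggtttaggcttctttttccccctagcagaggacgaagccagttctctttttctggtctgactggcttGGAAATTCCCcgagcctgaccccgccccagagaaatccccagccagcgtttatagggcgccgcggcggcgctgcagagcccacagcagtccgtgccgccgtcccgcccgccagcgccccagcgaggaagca
NFKBIZ (chr3:101827740-101828039, plus strand): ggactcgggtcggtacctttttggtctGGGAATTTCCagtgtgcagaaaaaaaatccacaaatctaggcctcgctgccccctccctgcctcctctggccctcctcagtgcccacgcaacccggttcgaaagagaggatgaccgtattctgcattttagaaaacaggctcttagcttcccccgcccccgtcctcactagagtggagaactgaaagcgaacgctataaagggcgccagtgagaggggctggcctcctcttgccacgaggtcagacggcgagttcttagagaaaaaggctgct
TNFAIP3 (chr6:137867009-137867308, plus strand): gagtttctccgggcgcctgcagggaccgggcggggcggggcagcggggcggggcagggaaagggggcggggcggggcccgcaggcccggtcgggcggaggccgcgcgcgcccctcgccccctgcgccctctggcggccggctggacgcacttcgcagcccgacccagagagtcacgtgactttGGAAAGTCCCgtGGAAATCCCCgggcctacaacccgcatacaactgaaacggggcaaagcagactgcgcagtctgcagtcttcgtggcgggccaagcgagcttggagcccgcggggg
TNFRSF9 (chr1:7940790-7941089, minus strand): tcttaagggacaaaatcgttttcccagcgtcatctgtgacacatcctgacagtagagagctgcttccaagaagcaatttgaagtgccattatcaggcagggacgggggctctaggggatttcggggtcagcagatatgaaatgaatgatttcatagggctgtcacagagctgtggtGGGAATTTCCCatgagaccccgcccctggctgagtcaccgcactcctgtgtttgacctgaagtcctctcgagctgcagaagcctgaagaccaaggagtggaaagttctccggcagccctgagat
BIRC3 (chr11:102317234-102317533, plus strand): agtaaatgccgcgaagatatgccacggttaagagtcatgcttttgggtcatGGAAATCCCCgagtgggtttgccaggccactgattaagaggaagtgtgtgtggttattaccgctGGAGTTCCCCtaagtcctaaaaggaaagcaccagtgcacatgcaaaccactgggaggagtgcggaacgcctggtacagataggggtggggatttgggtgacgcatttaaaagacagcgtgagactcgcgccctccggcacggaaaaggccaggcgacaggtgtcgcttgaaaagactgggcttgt
The window of ICAM1 held no match to this consensus, which says nothing of other letters or of positions outside the window.

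Of the members listed as inhibitors, 7 were upregulated, and the 3 with the highest fold changes of the list were among them. This grouping is that of the list, and what each protein does to NF-kB was not tested. NFKBIA, which encodes IkB-alpha (ENSG00000100906, chromosome 14, 35401513 to 35404749), was at 29.5 and 34.7 CPM in control medium and 222 and 229 CPM in E15.5-mSGcm (log2 fold change 2.81, SE 0.0699, edgeR adjusted p = 1.78e-27). NFKBIZ, an atypical nuclear IkB (ENSG00000144802, chromosome 3, 101827990 to 101861022), was at 3.52 and 4.67 CPM in control medium and 42.1 and 38.5 CPM in E15.5-mSGcm (log2 fold change 3.28, SE 0.142, edgeR adjusted p = 1.78e-20). TNFAIP3, the ubiquitin-editing enzyme A20 (ENSG00000118503, chromosome 6, 137866349 to 137883312), had 1 read in the control libraries together and was at 1.41 and 3.31 CPM in E15.5-mSGcm, a ratio of 68.3 with an exact 95% interval for counting error from 11.6 to 2766 (edgeR adjusted p = 1.31e-06). In none of these 3 did a library of 1 medium overlap with the other, which held for 1107 of the 1109 upregulated transcripts. NFKBIE, NFKBID and BCL3, further IkB proteins, rose 2.82-fold, 2.67-fold and 2.95-fold. CYLD, a deubiquitinase that ends the signal, rose 1.96-fold, from 44.1 and 45 CPM in control medium to 84.2 and 90.7 CPM in E15.5-mSGcm (edgeR adjusted p = 2.06e-13).

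The subunits of NF-kB itself divided. NFKB2, the precursor of p52, was at 19.3 and 20.1 CPM in control medium and 73.8 and 92.2 CPM in E15.5-mSGcm (log2 fold change 2.08, SE 0.0911, edgeR adjusted p = 3.72e-20). RELB was at 7.26 and 7.76 CPM in control medium and 25.8 and 29.5 CPM in E15.5-mSGcm (log2 fold change 1.88, SE 0.133, edgeR adjusted p = 2.69e-14), and REL rose 2.79-fold and NFKB1 2.21-fold. RELA, the subunit p65, was at 54.2 and 56.3 CPM in control medium and 59.3 and 60.5 CPM in E15.5-mSGcm and did not pass (log2 fold change 0.12, SE 0.0723, edgeR adjusted p = 0.212). Of the kinases, IKBKE rose 2.26-fold (edgeR adjusted p = 1.21e-07), whereas CHUK, IKBKB, IKBKG, TBK1, MAP3K14 and MAP3K7 were not called, with log2 fold changes from -0.33 to 0.45. The transcripts that changed were thus those of subunits, members listed as inhibitors and 1 kinase, and most kinase transcripts stayed within the criterion.

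Against the chick media, 10 of the 12 upregulated members were higher in the mouse medium than in both. NFKBIA differed by 3.22 on the log2 scale against E8-cSGcm (edgeR adjusted p = 8.05e-29) and 2.72 against E8-cDRGcm (adjusted p = 1.62e-27). NFKB2 was higher than in E8-cSGcm (log2 difference 1.17, edgeR adjusted p = 2.95e-14) but by less than 1.5-fold than in E8-cDRGcm (log2 difference 0.39), where it stood at 63.9 and 62.9 CPM. BCL3 likewise missed the fold criterion against E8-cDRGcm (log2 difference 0.52).

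**Figure D3:**
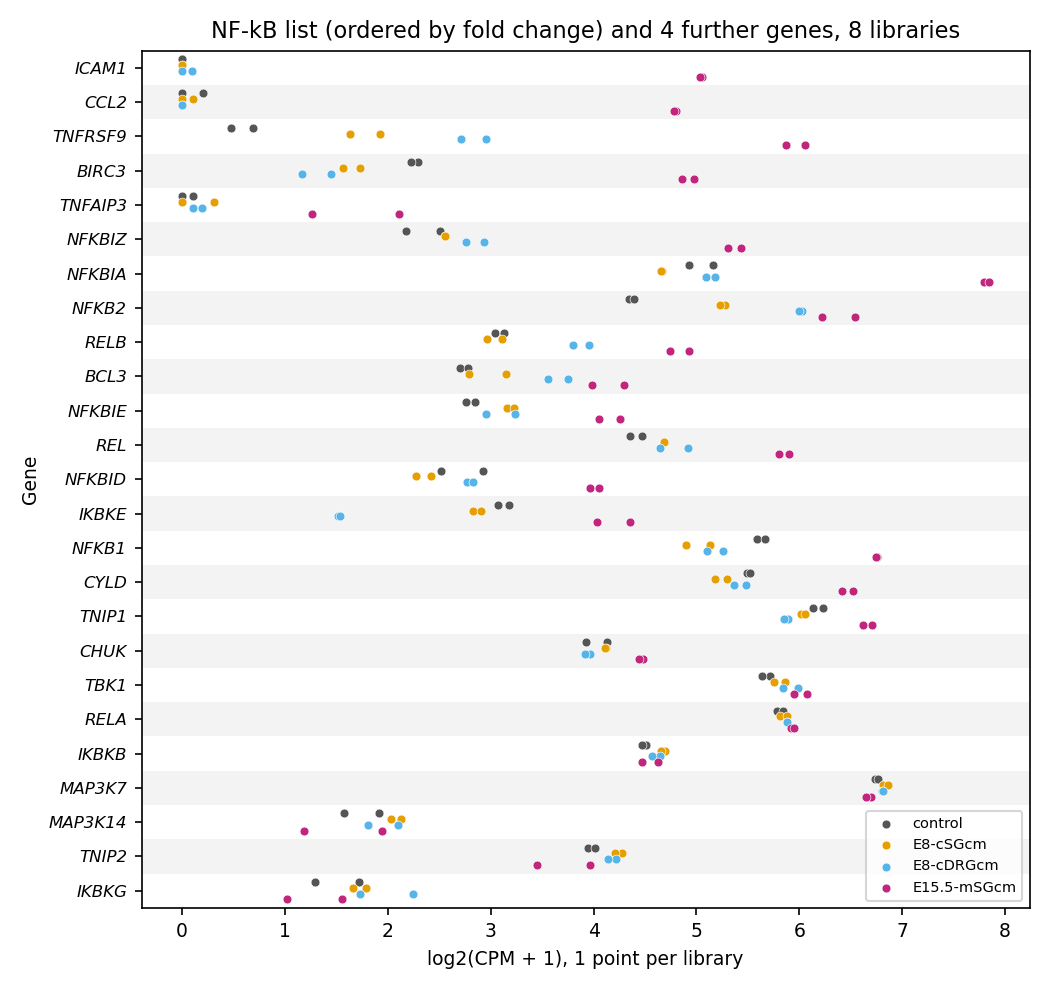
Levels as log2(CPM + 1), 1 point per library, of ICAM1, CCL2, TNFRSF9 and BIRC3 and of the 21 tested members of the NF-kB list, ordered by fold change, in control medium (grey), E8-cSGcm (orange), E8-cDRGcm (light blue) and E15.5-mSGcm (magenta). From ICAM1 down to CYLD both magenta points lie to the right of both grey points, while for RELA, IKBKB and the genes below them they lie near or to the left of the grey points.

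Chemokines and cytokines were mostly unread: 32 of the 50 listed genes had at most 3 reads in each of the 4 libraries, among them CXCL1, IL6 and TNF, and only 12 were tested. Of these, 7 were upregulated and 1 was downregulated, beside 6.65% and 7.27% of all tested genes. With a filter of at least 10 counts in each of the 4 libraries 2 members were upregulated, and with DESeq2 4. CXCL12, the ligand of CXCR4 (ENSG00000107562, chromosome 10, 44370165 to 44385097), was at 0.153 and 0.658 CPM in control medium and 14.2 and 14.1 CPM in E15.5-mSGcm (log2 fold change 5.03, SE 0.324, edgeR adjusted p = 2.15e-15). CX3CL1, a membrane-bound chemokine, was at 26.8 and 28.9 CPM in control medium and 62.3 and 68.1 CPM in E15.5-mSGcm (log2 fold change 1.23, SE 0.0846, edgeR adjusted p = 1.44e-14), and CSF1, the growth factor of macrophages, was at 9.71 and 10.5 CPM in control medium and 19.7 and 21.6 CPM in E15.5-mSGcm (log2 fold change 1.03, SE 0.139, edgeR adjusted p = 1.60e-07). The other 3 had no read in control medium and few in E15.5-mSGcm: CXCL10 had 9 and 18 reads, IL32 11 and 18 and the complement gene C3 11 and 9. Without the second E15.5-mSGcm library, 4 members were called upregulated instead of 7. IL7 was the member that fell, from 11.8 and 12.4 CPM in control medium to 5.89 and 6.97 CPM in E15.5-mSGcm (log2 fold change -0.91, SE 0.173, edgeR adjusted p = 5.80e-05). All 7 upregulated members were also higher than in both chick media, where CCL2 had 0.0802 and 0 CPM in E8-cSGcm and no read in E8-cDRGcm.

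TNF receptors and their adaptors did not move as 1 group. Of 29 tested members of 47, 7 were upregulated and 2 downregulated, with a median log2 fold change of 0.04. These were 24.1% and 6.90%, beside 6.65% and 7.27% of all tested genes. Beside TNFRSF9, BIRC3, which encodes the apoptosis inhibitor cIAP2 (ENSG00000023445, chromosome 11, 102317484 to 102339403), was at 3.9 and 3.68 CPM in control medium and 30.5 and 28 CPM in E15.5-mSGcm (log2 fold change 2.94, SE 0.159, edgeR adjusted p = 1.30e-17). The TRAIL receptors TNFRSF10A, TNFRSF10B and TNFRSF10D rose 1.88-fold, 1.72-fold and 2.45-fold. TNFRSF21 was called downregulated but missed the fold criterion without the first control or the second E15.5-mSGcm library (log2 fold changes -0.57 and -0.50). NGFR, the neurotrophin receptor p75, fell from 18.4 and 18.4 CPM in control medium to 5.25 and 7.08 CPM in E15.5-mSGcm (log2 fold change -1.56, SE 0.146, edgeR adjusted p = 3.96e-11). The receptors TNFRSF1A and LTBR were not called, and TNFRSF1A was at 47 and 44 CPM in control medium and 45.7 and 43.1 CPM in E15.5-mSGcm. BIRC3 was also higher than in the chick media, by 3.77 on the log2 scale against E8-cSGcm (edgeR adjusted p = 2.01e-19) and 4.29 against E8-cDRGcm (adjusted p = 1.20e-20). Of the TRAIL receptors, TNFRSF10D was higher than in both chick media, TNFRSF10A met both criteria against neither, and TNFRSF10B was lower than in E8-cDRGcm (log2 difference -0.73, edgeR adjusted p = 5.02e-13).

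Of 24 tested members of 48 genes that interferons induce, 6 were upregulated (25%, beside 6.65% of all tested genes) and 1 was downregulated, with a median log2 fold change of 0.26. IFIT2, counted among the 6, passed the filter on low counts through its reads in E15.5-mSGcm. IFIT2 (ENSG00000119922, chromosome 10, 89302046 to 89309271) was at 0.535 and 0.526 CPM in control medium and 3.46 and 3.88 CPM in E15.5-mSGcm (log2 fold change 2.77, SE 0.406, edgeR adjusted p = 8.11e-07), and IRF1, a transcription factor that NF-kB also induces, was at 3.59 and 5.39 CPM in control medium and 16 and 12.3 CPM in E15.5-mSGcm (log2 fold change 1.63, SE 0.186, edgeR adjusted p = 5.17e-09). OAS1 was the member downregulated, from 0.917 and 1.25 CPM in control medium to 0.256 and 0.114 CPM in E15.5-mSGcm, and its call was lost without the second control library. Of 11 tested genes of MHC class I antigen presentation, ERAP2 alone was upregulated, and not without the first control library (edgeR adjusted p = 0.191) or the second E15.5-mSGcm library (adjusted p = 0.22). B2M was at 20.3 and 17.6 CPM in control medium and 26.1 and 24.8 CPM in E15.5-mSGcm (log2 fold change 0.43, edgeR adjusted p = 0.00203). TAP1, PSMB9 and HLA-B had no read in these 4 libraries.

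Receptor pathways other than NF-kB gave mixed directions. Upregulated and downregulated were 13.6% and 9.09% of the gp130 list, 14.3% and 7.14% of the AP-1 list and 12% and 20% of the ERK list. The shares over all tested genes were 6.65% and 7.27%. In the gp130 and JAK-STAT3 list 3 of 22 tested members rose and 2 fell: LIFR, the receptor of leukemia inhibitory factor, went from 239 and 251 CPM in control medium to 448 and 485 CPM in E15.5-mSGcm (log2 fold change 0.93, SE 0.0536, edgeR adjusted p = 8.25e-17), and the repressor BCL6 from 7.88 and 8.68 CPM in control medium to 38 and 48.1 CPM in E15.5-mSGcm (log2 fold change 2.38, SE 0.124, edgeR adjusted p = 4.10e-18). PIM3 rose 1.51-fold, short of the criterion without the first control or the second E15.5-mSGcm library, CISH fell to 39.5% and IL11RA to 51% of the control level. STAT3 itself was at 74.7 and 69.7 CPM in control medium and 94.2 and 90.7 CPM in E15.5-mSGcm (log2 fold change 0.36), and SOCS3, its feedback inhibitor, had fewer than 1 CPM in each library. Of AP-1 factors, JUN rose 1.64-fold and JUNB 1.61-fold, ATF3 fell to 59.8%, and FOS was at 2.06 and 1.31 CPM in control medium and 3.08 and 2.51 CPM in E15.5-mSGcm and did not pass. Without the first control library, 4 AP-1 genes were called upregulated instead of 2. Among 25 tested genes of the ERK feedback list, 3 were upregulated and 5 downregulated. DUSP6, a phosphatase that ERK signalling induces on itself, fell from 69.2 and 65.7 CPM in control medium to 36.8 and 33.4 CPM in E15.5-mSGcm (log2 fold change -0.95, SE 0.0813, edgeR adjusted p = 5.18e-12), while the stress phosphatases DUSP1 and DUSP10 rose 2.33-fold and 2.67-fold. Without the second E15.5-mSGcm library, 2 members of this list were called downregulated instead of 5.

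The Notch list had 5 downregulated members and none upregulated of 16 tested. The receptor NOTCH3 fell from 58.1 and 62 CPM in control medium to 30.4 and 26.1 CPM in E15.5-mSGcm (log2 fold change -1.1, SE 0.0851, edgeR adjusted p = 3.58e-13) and the ligand JAG1 from 205 and 216 CPM in control medium to 109 and 109 CPM in E15.5-mSGcm (log2 fold change -0.95, SE 0.0555, edgeR adjusted p = 1.18e-16). HEY1, a target of the pathway, fell to 59% of the control level and DLL3 to 61.6%. HES1, another target, was at 12.5 and 13.9 CPM in control medium and 18.3 and 17 CPM in E15.5-mSGcm, in the opposite direction, and missed the fold criterion. When GC content and length were corrected for, 3 members were called instead of 5. Of the BMP and TGF-beta list, 3 of 24 tested members rose and 2 fell: ID2 rose 1.88-fold, LTBP1 rose 1.87-fold, GDF15 had 0 and 2 reads in control medium and 6 and 17 in E15.5-mSGcm, BAMBI fell to 40.8% and ACVRL1 to 40.1%. Of the YAP and TEAD list, NUAK2 rose from 0.382 and 0.197 CPM in control medium to 2.43 and 2.4 CPM in E15.5-mSGcm, NT5E fell to 60.5%, and ARHGAP29 and TEAD4 were called downregulated but not without the second E15.5-mSGcm library (edgeR adjusted p = 0.158 and 0.227). CCN2 and ANKRD1, standard targets of YAP, had no read. Upregulated and downregulated were 12.5% and 8.33% of the BMP and TGF-beta list and 5.56% and 16.7% of the YAP and TEAD list. The shares over all tested genes were 6.65% and 7.27%.

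Replication-dependent histones had the largest share of called members of the 32 lists. Of 49 tested members of 58, 47 were downregulated and none was upregulated, beside 7.27% of all tested genes that were downregulated. The median log2 fold change was -2.42. Counts of the listed genes made up 0.712% and 0.718% of the control libraries and 0.153% of each E15.5-mSGcm library. The tested members summed to 7040 and 7106 CPM in control medium and to 1551 and 1558 CPM in E15.5-mSGcm. In the chick media they summed to 6479 and 7412 CPM (E8-cSGcm) and 6275 and 7404 CPM (E8-cDRGcm). The 2 libraries of the mouse medium thus stood apart from the other 6, and 45 members were lower in the mouse medium than in control medium and in both chick media. The 5′ to 3′ letters around the stem-loop that ends these mRNAs were read from GENCODE transcripts of a member of each family and of H3C6, H4C5 and H4C13, chosen after their values were seen as the 3 members with the smallest changes, with the stem-loop in capitals.
H1-5: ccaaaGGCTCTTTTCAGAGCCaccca
H2AC16: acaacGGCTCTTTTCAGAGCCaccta
H2BC18: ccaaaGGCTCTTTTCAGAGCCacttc
H3C12: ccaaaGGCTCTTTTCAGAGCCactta
H4C3: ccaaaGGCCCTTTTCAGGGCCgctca
H3C6: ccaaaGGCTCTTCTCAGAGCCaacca
H4C5: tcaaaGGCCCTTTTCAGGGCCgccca
H4C13: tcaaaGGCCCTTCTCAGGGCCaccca
The stem-loop pattern was found in 38 of the 49 tested members and in 7 of 16525 tested genes outside the list. Of these 7, which include histone genes that were not listed, 4 were downregulated and none was upregulated.

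All 5 histone families fell. The linker histone H1-5 (ENSG00000184357, chromosome 6, 27866792 to 27867588) was at 594 and 612 CPM in control medium and 81.9 and 68.3 CPM in E15.5-mSGcm (log2 fold change -3.01, SE 0.157, edgeR adjusted p = 6.50e-05), and all 4 tested H1 genes were downregulated. Of H2A and H2B, all 11 and all 14 tested genes were downregulated, with medians of -2.42 and -2.51. H2AC16 was at 77.8 and 80.7 CPM in control medium and 8.33 and 9.48 CPM in E15.5-mSGcm (log2 fold change -3.15, SE 0.12, edgeR adjusted p = 4.46e-20), and H2BC11 was at 145 and 133 CPM in control medium and 10.9 and 15.8 CPM in E15.5-mSGcm (log2 fold change -3.37, SE 0.197, edgeR adjusted p = 2.40e-05). Of H3, 9 of 10 were downregulated with a median of -2.65, and H3C12 was at 49.9 and 50.1 CPM in control medium and 5.38 and 4.8 CPM in E15.5-mSGcm (log2 fold change -3.3, SE 0.145, edgeR adjusted p = 1.21e-19). Of H4, 9 of 10 were downregulated with a median of -1.83. H4C9 (ENSG00000276180, chromosome 6, 27139282 to 27139678) was at 103 and 95.1 CPM in control medium and 9.22 and 9.6 CPM in E15.5-mSGcm (log2 fold change -3.39, SE 0.104, edgeR adjusted p = 1.19e-24), the lowest ratio of the list. The 2 members not called were H3C6, at 4.28 and 4.67 CPM in control medium and 5.12 and 5.94 CPM in E15.5-mSGcm (log2 fold change 0.31, edgeR adjusted p = 0.322), and H4C5, at 182 and 187 CPM in control medium and 137 and 130 CPM in E15.5-mSGcm (log2 fold change -0.47, edgeR adjusted p = 1.66e-07). Histone genes share long stretches of near-identical sequence, so that the split of reads between copies is uncertain while the sum over the list is less so.

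Histone transcripts are short and GC-rich. Among 2087 tested protein-coding genes of the same range of transcript lengths, without histone and mitochondrial genes, 84 were upregulated and 176 downregulated (8.43%), with a median log2 fold change of -0.12. With each library corrected for GC content and length, 46 histone members were called downregulated. Of genes of DNA replication and S phase, 12 of 44 tested members were downregulated and none was upregulated, with a median of -0.37. RRM2, the subunit of ribonucleotide reductase that is made in S phase, was at 57.2 and 52.4 CPM in control medium and 28.1 and 31 CPM in E15.5-mSGcm (log2 fold change -0.89, SE 0.0856, edgeR adjusted p = 9.58e-11), and CHAF1B, a subunit of the chaperone that loads histones on new DNA, was at 18.5 and 19.7 CPM in control medium and 11.2 and 8.8 CPM in E15.5-mSGcm (log2 fold change -0.95, SE 0.133, edgeR adjusted p = 3.46e-07). CDC45, CCNE1 and CCNE2 fell to 53.8%, 58.2% and 56.8% of the control level. PCNA was at 165 and 159 CPM in control medium and 164 and 158 CPM in E15.5-mSGcm and did not pass (log2 fold change -0.01), and MCM2, a subunit of the replicative helicase, missed the fold criterion (log2 fold change -0.40). Of 35 tested genes of mitosis, 3 were downregulated, a share of 8.57% that lay near the 7.27% of all tested genes, and none was upregulated, with a median of -0.31. These were TPX2, from 289 and 278 CPM in control medium to 176 and 186 CPM in E15.5-mSGcm (log2 fold change -0.64, SE 0.0514, edgeR adjusted p = 7.89e-13), KIF23 and CCNA2, all of which were also lower than in both chick media. CCNA2 missed the fold criterion without the second control library, and 6 members were called without the first E15.5-mSGcm library. MKI67 was at 538 and 535 CPM in control medium and 389.7 and 475 CPM in E15.5-mSGcm and did not pass (edgeR adjusted p = 0.353).

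MYCN, the oncogene whose amplification marks aggressive NB (ENSG00000134323, chromosome 2, 15940550 to 15947004), lost more CPM than any other called gene. It was at 4679 and 4610 CPM in control medium and 2704 and 2573 CPM in E15.5-mSGcm (log2 fold change -0.82, SE 0.049, edgeR adjusted p = 2.75e-16), 56.8% of the control level. It was at 3308 and 3496 CPM in E8-cSGcm and 2433 and 2558 CPM in E8-cDRGcm, and differed by 0.08 on the log2 scale between the mouse medium and E8-cDRGcm (edgeR adjusted p = 0.172). ACTG1, cytoplasmic gamma-actin, had the next largest loss, from 2377 and 2462 CPM in control medium to 1633 and 1586 CPM in E15.5-mSGcm (log2 fold change -0.59, SE 0.0506, edgeR adjusted p = 5.23e-12), at the edge of the fold criterion, and missed it without the second library of either medium (log2 fold changes -0.57 and -0.58).

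Transcripts of catecholamine handling fell in part. Of 13 tested members of 15, 6 were downregulated and none was upregulated, with a median log2 fold change of -0.40. SLC18A2, the vesicular transporter VMAT2 (ENSG00000165646, chromosome 10, 117241114 to 117279430), was at 10.9 and 9.27 CPM in control medium and 0.769 and 1.03 CPM in E15.5-mSGcm (log2 fold change -3.46, SE 0.295, edgeR adjusted p = 4.42e-12). TH, the rate-limiting enzyme of catecholamine synthesis (ENSG00000180176, chromosome 11, 2163929 to 2171815), was at 8.87 and 9.07 CPM in control medium and 1.15 and 1.03 CPM in E15.5-mSGcm (log2 fold change -3.03, SE 0.277, edgeR adjusted p = 2.27e-11), from 116 and 138 reads in control medium to 9 and 9 reads. For both genes the 2 media did not overlap, which held for 1212 of the 1213 downregulated transcripts. CYB561, an electron carrier of the vesicle membrane, fell from 140.3 and 138 CPM in control medium to 50.7 and 47.5 CPM in E15.5-mSGcm (log2 fold change -1.5, SE 0.0743, edgeR adjusted p = 8.36e-19), and SLC6A2, the noradrenaline transporter, fell from 149 and 155 CPM in control medium to 70 and 60.4 CPM in E15.5-mSGcm (log2 fold change -1.22, SE 0.0685, edgeR adjusted p = 3.71e-17). SLC18A1 (VMAT1) and GCH1, which makes the cofactor of TH, fell to 55.6% and 61.4% of the control level. The other enzymes of the pathway did not follow: DBH was at 37.9 and 37.1 CPM in control medium and 48.4 and 55.2 CPM in E15.5-mSGcm and DDC at 51.1 and 48.4 CPM in control medium and 45.6 and 42.5 CPM in E15.5-mSGcm, neither of which met both criteria.

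Against the chick media, TH and SLC18A2 were lower in the mouse medium than in both. TH differed by -2.93 on the log2 scale against E8-cSGcm (edgeR adjusted p = 4.82e-11) and -2.51 against E8-cDRGcm (adjusted p = 4.16e-09), and SLC18A2 by -3.35 on the log2 scale against E8-cSGcm (edgeR adjusted p = 8.88e-12) and -3.21 against E8-cDRGcm (adjusted p = 2.50e-11). CYB561 and SLC6A2 were called lower than in neither of them. CYB561 was at 37.4 and 40 CPM in E8-cSGcm and at 14.8 and 18.8 CPM in E8-cDRGcm and was higher in the mouse medium than in the latter (log2 difference 1.54, edgeR adjusted p = 2.48e-16). SLC6A2 was likewise higher than in E8-cDRGcm (log2 difference 1.0, edgeR adjusted p = 2.79e-13), and neither gene met both criteria against E8-cSGcm. DBH was higher in the mouse medium than in either chick medium, by 1.58 on the log2 scale against E8-cSGcm (edgeR adjusted p = 2.25e-16) and 2.43 against E8-cDRGcm (adjusted p = 8.22e-21).

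In the list of chromogranins and prohormone processing, 4 of 12 tested members were upregulated, 1 was downregulated and 7 were not called. PENK, the precursor of the enkephalins, was at 3.21 and 3.09 CPM in control medium and 25 and 36.9 CPM in E15.5-mSGcm (log2 fold change 3.3, SE 0.186, edgeR adjusted p = 5.02e-16). NPY, neuropeptide Y, was at 9.02 and 11.1 CPM in control medium and 36.1 and 34.5 CPM in E15.5-mSGcm (log2 fold change 1.8, SE 0.112, edgeR adjusted p = 7.33e-16), and VIP, vasoactive intestinal peptide, was at 11 and 13.3 CPM in control medium and 31.9 and 37.4 CPM in E15.5-mSGcm (log2 fold change 1.5, SE 0.119, edgeR adjusted p = 7.39e-13). CPE, a peptidase that trims prohormones, rose 1.71-fold, while the convertase PCSK1 fell to 60.2% of the control level (not called without the second control library). CHGB was at 802 and 739 CPM in control medium and 582 and 581 CPM in E15.5-mSGcm and missed the fold criterion. PENK was higher than in both chick media, by 3.13 on the log2 scale against E8-cSGcm (edgeR adjusted p = 7.59e-16) and 3.98 against E8-cDRGcm (adjusted p = 1.21e-17). NPY was not: its level in E8-cDRGcm was 50.6 and 48.3 CPM, above that in the mouse medium by less than 1.5-fold.

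**Figure D4:**
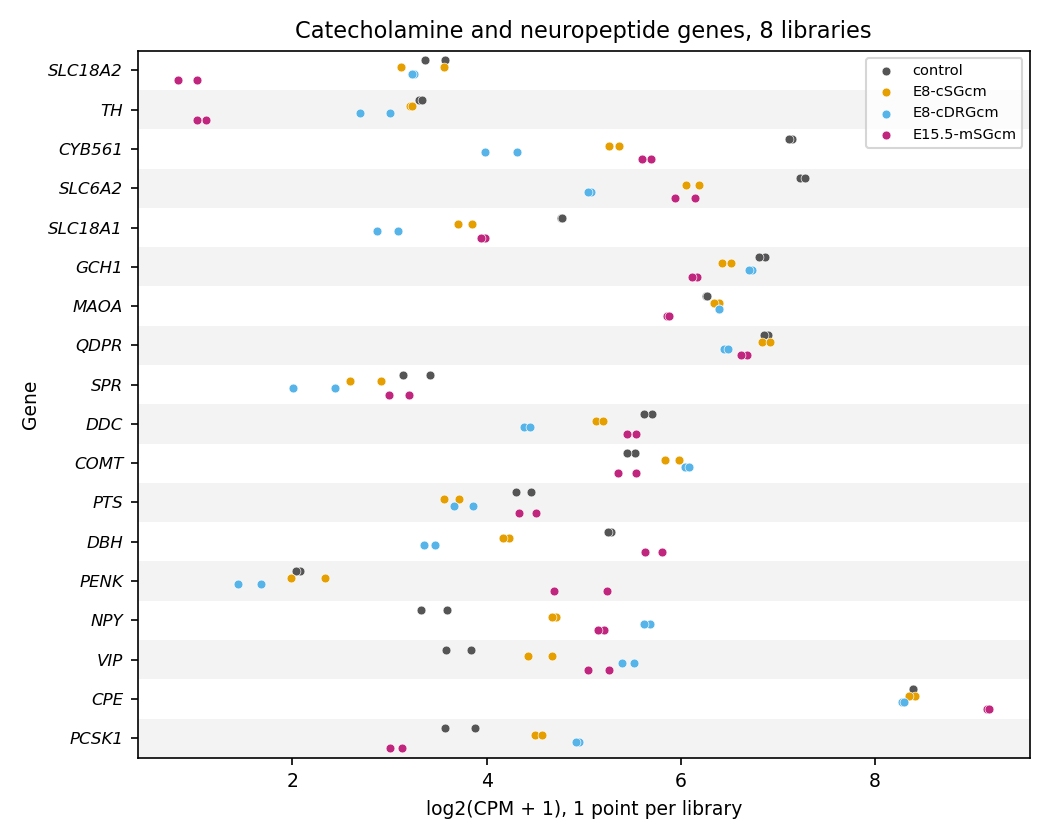
Levels as log2(CPM + 1), 1 point per library, of the 13 tested catecholamine genes, ordered by fold change, and of 5 genes of neuropeptides and their processing in the 4 media (colours in the key). The E15.5-mSGcm points of SLC18A2 and TH lie left of all other points of those genes, and those of PENK lie right of all others.

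Ion channel genes moved in both directions, 6 up and 6 down of 23 tested. The sodium channel genes SCN3A and SCN9A rose 1.9-fold and 2.36-fold, and CACNA2D1, an auxiliary calcium channel subunit, went from 331 and 342 CPM in control medium to 538 and 599 CPM in E15.5-mSGcm (log2 fold change 0.76, SE 0.0507, edgeR adjusted p = 6.49e-15). Potassium channel genes were among those that fell: KCNQ3 went from 55.7 and 46.8 CPM in control medium to 19.9 and 22.3 CPM in E15.5-mSGcm (log2 fold change -1.27, SE 0.10, edgeR adjusted p = 1.10e-12), and KCNH6 to 23.6% of the control level. Both were also lower than in both chick media. Of the neuronal cytoskeleton list, 2 of 32 tested members rose (6.25%, near the 6.65% of all tested genes) and 5 fell (15.6%, beside 7.27%). PRPH, the intermediate filament peripherin, fell from 252 and 262 CPM in control medium to 155 and 159 CPM in E15.5-mSGcm (log2 fold change -0.71, SE 0.0523, edgeR adjusted p = 8.15e-14), DCLK1 fell to 48.8% and DPYSL4 to 45.2%, and the tubulin genes TUBB2A and TUBB3 to 48% and 51.5%. The call of TUBB3 was lost without the second control library (edgeR adjusted p = 0.135) or the first E15.5-mSGcm library (adjusted p = 0.141). NEFM, the medium neurofilament, rose from 579 and 567 CPM in control medium to 825 and 896 CPM in E15.5-mSGcm (log2 fold change 0.59, SE 0.0496, edgeR adjusted p = 3.35e-12), close to the fold criterion, and missed it without the second library of either medium.

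Genes that the factor ATF4 induces when amino acids run short were mostly not called against control medium and were largely lower than in the chick media. Of 41 tested members, 1 was upregulated and 6 downregulated, with a median log2 fold change of -0.12. These were 2.44% and 14.6%, beside 6.65% and 7.27% of all tested genes. CHAC1, an enzyme that degrades glutathione, fell from 35.6 and 28.8 CPM in control medium to 7.17 and 7.77 CPM in E15.5-mSGcm (log2 fold change -2.1, SE 0.141, edgeR adjusted p = 6.88e-15), and SLC7A5, a transporter of large neutral amino acids, fell from 119 and 115 CPM in control medium to 54.7 and 56.7 CPM in E15.5-mSGcm (log2 fold change -1.07, SE 0.0659, edgeR adjusted p = 5.95e-16). SESN2 and SLC1A5 fell to 49.9% and 62.7% of the control level, and the tryptophanyl-tRNA synthetase gene WARS1 rose 1.58-fold. In direct contrasts, 23 members were lower in the mouse medium than in E8-cSGcm and 30 lower than in E8-cDRGcm, where 12.1% and 13.1% of all tested genes were lower. TRIB3 was at 30.6 and 28.8 CPM in control medium and 18.7 and 21.7 CPM in E15.5-mSGcm, against 56.4 and 71.2 CPM in E8-cSGcm and 158 and 175 CPM in E8-cDRGcm. ASNS, asparagine synthetase, was at 3.29 and 4.47 CPM in control medium and 2.05 and 2.74 CPM in E15.5-mSGcm, against 10.8 and 12.2 and 26.6 and 28.9 CPM in the chick media.

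Sterol synthesis genes rose modestly. Of 25 tested members, 8 were upregulated and none was downregulated, with a median log2 fold change of 0.35. INSIG1, which holds the sterol sensor SCAP in the ER (ENSG00000186480, chromosome 7, 155297878 to 155310235), was at 31.5 and 34.1 CPM in control medium and 74.8 and 80 CPM in E15.5-mSGcm (log2 fold change 1.24, SE 0.0801, edgeR adjusted p = 2.44e-15). HMGCS1 was at 201 and 193 CPM in control medium and 359 and 334 CPM in E15.5-mSGcm (log2 fold change 0.81, SE 0.0555, edgeR adjusted p = 1.15e-14), and IDI1 at 169.8 and 165 CPM in control medium and 303 and 286 CPM in E15.5-mSGcm (log2 fold change 0.82, SE 0.0552, edgeR adjusted p = 7.90e-15). With adjusted p alone, 16 members were called higher, and with every gene of at least 1 count kept, 5. In direct contrasts 9 of the 25 were higher than in E8-cSGcm and 14 higher than in E8-cDRGcm, where 10.2% and 13.1% of all tested genes were higher. Fatty acid synthesis did not follow, with no called member of 13 and FASN at 1339 and 1459 CPM in control medium and 1307 and 1363 CPM in E15.5-mSGcm. Chaperones of the ER showed 4 upregulated members of 26 and none downregulated: EIF2AK3, the stress sensor PERK, rose 2.02-fold, SEL1L 1.73-fold, PDIA6 1.67-fold and DNAJC3 1.58-fold. DNAJC3 missed the fold criterion without the first control or the second E15.5-mSGcm library. HSPA5, the main chaperone of the ER, was at 910.5 and 969 CPM in control medium and 1296 and 1412 CPM in E15.5-mSGcm and missed the fold criterion.

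Lysosome and autophagy genes had 7 upregulated members of 29 tested and none downregulated, with a median of 0.42. OPTN, an autophagy receptor, was at 45.6 and 43.6 CPM in control medium and 136 and 136 CPM in E15.5-mSGcm (log2 fold change 1.61, SE 0.0661, edgeR adjusted p = 4.37e-21). WIPI1 was at 0.994 and 0.986 CPM in control medium and 5.38 and 6.51 CPM in E15.5-mSGcm (log2 fold change 2.58, SE 0.315, edgeR adjusted p = 2.25e-08), and NPC2, a cholesterol carrier of the lysosome, rose 3.02-fold. These 3 were higher than in both chick media as well. SQSTM1, which most cells express, had 2 to 5 reads in each of the 4 libraries and was not tested. Of 18 tested clock genes, 3 were upregulated and none was downregulated. NPAS2 rose from 1.38 and 2.37 CPM in control medium to 20.1 and 18.5 CPM in E15.5-mSGcm (log2 fold change 3.33, SE 0.207, edgeR adjusted p = 6.97e-16) and BHLHE40 from 16.4 and 15.7 CPM in control medium to 39.5 and 44.1 CPM in E15.5-mSGcm (log2 fold change 1.39, SE 0.105, edgeR adjusted p = 1.84e-13), while PER1 was at 31.6 and 36.2 CPM in control medium and 30.1 and 26.5 CPM in E15.5-mSGcm and was not called. Glycolysis and hypoxia genes had 3 downregulated members of 35 (PFKL, PFKFB4 and SLC16A3), ribosomal protein genes 1 of 74 (RPS26), and genes of the NRF2 response 1 upregulated member of 23 (AKR1C3). The glycolysis share of 8.57% lay near the 7.27% of all tested genes, and the other 2 lists lay below the background. The BCL2 list below had 6.67% called in each direction, also near it. Without the first E15.5-mSGcm library PFKFB4 no longer passed (edgeR adjusted p = 0.119), and without the second neither RPS26 (adjusted p = 0.204) nor AKR1C3 (adjusted p = 0.267) did. All 3 also lost their call without the second control library. Of 15 tested BCL2 family genes BBC3 was called upregulated and BCL2L12 downregulated, and both lost their call without the second control library (edgeR adjusted p = 0.0555 and 0.0829) or the second E15.5-mSGcm library (adjusted p = 0.129 and 0.201). Of 7 tested metallothionein and zinc genes, MT1F and MT1G rose from under 1 CPM in control medium, and 1 was called without the second control library or without either E15.5-mSGcm library.

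By gene class, long noncoding RNAs were called higher more often than protein-coding genes and lower less often, though most were not called. Of 1772 tested lncRNAs, 201 were upregulated and 77 downregulated (11.3% and 4.35%), with a median log2 fold change of 0.09. Of 12375 protein-coding genes 761 were upregulated and 991 downregulated (6.15% and 8.01%). The shares over all tested genes were 6.65% and 7.27%. MALAT1, an abundant nuclear lncRNA (ENSG00000251562, chromosome 11, 65497738 to 65506516), gained more CPM than any other called gene, from 4454 and 5570 CPM in control medium to 18491 and 19130.1 CPM in E15.5-mSGcm (log2 fold change 1.91, SE 0.134, edgeR adjusted p = 1.62e-04). It took 0.451% and 0.562% of the counts in control medium and 1.82% and 1.87% in E15.5-mSGcm. It took 1.55% and 1.59% in E8-cDRGcm and did not meet both criteria between that medium and the mouse medium. ROR1-AS1, an antisense transcript, rose from 3.44 and 3.35 CPM in control medium to 19.9 and 25.1 CPM in E15.5-mSGcm (log2 fold change 2.73, SE 0.179, edgeR adjusted p = 3.46e-15). Whether reads were counted by strand is not given in the sources used here, so that reads of a gene on the opposite strand cannot be told apart from it. LINC-PINT and LINC02605 rose 4.51-fold and 4.19-fold, and these 3 lncRNAs were higher than in both chick media. MIR663AHG fell to 29.3% of the control level (edgeR adjusted p = 0.0162), and no longer passed when any 1 of the 4 libraries was left out (adjusted p from 0.0619 to 0.11). LINC01694 fell to 32% and ENSG00000259932, which has no symbol in the annotation, to 35.3%.

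Of 103 tested snoRNAs, which guide the modification of ribosomal RNA, 48 were downregulated (46.6%) and none upregulated. Of 20 snRNAs 10 were downregulated (50%) and none upregulated. The shares over all tested genes were 7.27% downregulated and 6.65% upregulated. Counts on snoRNAs were 0.359% and 0.313% of the control libraries and 0.194% and 0.154% of the E15.5-mSGcm libraries, with 0.186% and 0.192% in E8-cDRGcm. Only 2 of the 103 were lower in the mouse medium than in E8-cDRGcm, and 27 were lower than in E8-cSGcm. Over all tested genes, 13.1% and 12.1% were lower. Of the 20 snRNAs, 0 were lower than in E8-cDRGcm and 3 lower than in E8-cSGcm. Counts on snRNAs were 0.0715% and 0.0554% of the control libraries, 0.0325% and 0.0283% of the E15.5-mSGcm libraries and 0.0269% and 0.0274% in E8-cDRGcm. SNORA73B, the snoRNA with the largest loss, was at 1567 and 1411 CPM in control medium and 808 and 604 CPM in E15.5-mSGcm (log2 fold change -1.08, SE 0.157, edgeR adjusted p = 0.00646), and did not pass in a fit of the 4 libraries alone (edgeR adjusted p = 0.0583). The host genes from whose introns many snoRNAs are cut had no called member of 21, with a median log2 fold change of -0.10.

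Transcripts of the mitochondrial chromosome took 4.85% and 5.36% of the control libraries and 7.46% and 7.03% of the E15.5-mSGcm libraries. In the chick media they took 4.65% to 6.22%. Of the 13 protein-coding genes, 5 were upregulated and none downregulated, with a median log2 fold change of 0.69. MT-CYB was at 886 and 1149 CPM in control medium and 2040 and 1872 CPM in E15.5-mSGcm (log2 fold change 0.94, SE 0.177, edgeR adjusted p = 0.0163), and MT-CO1, the gene with the most mitochondrial counts in this list, was at 4293 and 5406 CPM in control medium and 8115 and 7491 CPM in E15.5-mSGcm and did not pass (edgeR adjusted p = 0.0626). The adjusted p of the 5 lay between 0.0163 and 0.0482. With the replicate number as a block 1 was called, without the first control library 1, and without either E15.5-mSGcm library none. All 5 were higher than in both chick media, and MT-CYB by 2.29 on the log2 scale against E8-cSGcm (edgeR adjusted p = 5.75e-04) and 2.16 against E8-cDRGcm (adjusted p = 6.27e-04).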

How the data were processed

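RNA was measured by RNA-seq in 8 libraries (SMARTer Stranded Total RNA-Seq Pico v2 kit, NextSeq500). The deposited values are raw counts of reads per gene, which the authors made; the submitters' processing notes name bcl2fastq 2.17.1.14, cutadapt 1.9.1, TopHat2 2.1.0 and HTSeq 0.11.3. The notes name GRCh38 and the study's methods another build; no coordinates of reads were used, and printed positions are from RefSeq on GRCh38. How multiply aligned reads were treated is not given in the sources used here, and reads shared by near-identical genes can be lost or split.

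Of 60676 genes, 16680 passed edgeR's filterByExpr and were fitted over all 4 media with TMM scaling and a quasi-likelihood test (edgeR 4.0.16, R 4.3.3, two-sided), with Benjamini-Hochberg adjustment over all of them. The tests used an adjusted p under 0.05 and a fold of 1.5. For genes with no read in either control library, 3 counts in each stood for control medium in the lower bound of a fold, and for genes with 1 to 3 control reads the ratio of summed reads per depth is given with an exact 95% interval. Bounds and CPM cover counting error only. On data simulated for this comparison over 16295 genes, edgeR recovered 193 of 200 changed genes with 4 false calls, and DESeq2 187 with 0. In the libraries themselves 2322 of 16680 tested genes were called. The rate of false or missed calls with that many changed genes was not tested. Genes named are the 10 highest and 10 lowest fold changes among called protein-coding genes with a mean of at least 5 CPM. Both E15.5-mSGcm libraries also had to lie beyond both control libraries. The 3 extreme lncRNAs in each direction were chosen by the same rule. Also named are the 5 largest gains and losses in CPM and up to 4 called members at each end of each list. Core members that were not called are given as values, and small lists are named in full. The comparison, gene lists and rules were chosen with earlier results of these data known. Alternatives were DESeq2 1.42.0, RLE size factors, other filters, only the 4 libraries, thinning to 7930765 counts, a spline of GC content and gene length (5 degrees of freedom, known for 99.4% of tested genes), a replicate block and leaving out each library. Python 3.11.15, pandas 2.3.3 and matplotlib 3.10.9 made the tables and figures. Of the listed symbols, 6 had no match among the gene identifiers and were not analysed here. Results for some genes are not reported here.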

Additional observations from a re-analysis of the deposited data

How the results depend on the processing

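The replicate numbers are only shared between media: deviations of same-numbered libraries from their group means correlated with r from -0.0437 to 0.042 across genes. With the number as a replicate block, the count of transcripts higher in E15.5-mSGcm than in control medium was 1085 and that of transcripts lower 1203, the share higher was 47.4%, and 4 of 134 named entries, all mitochondrial, no longer passed. DESeq2 called 706 transcripts higher, and adjusted p alone called 2975 higher and 3330 lower. The share of called transcripts that were higher was 41.7% with every gene of at least 1 count and 50.1% in a fit of the 4 libraries alone, which turns the majority, so that neither direction prevailed. Sterol genes called higher were 5 with every gene of at least 1 count and 16 with adjusted p alone, and S-phase genes called lower were 30 with adjusted p alone. The cause of these differences was not tested beyond what each setting changes by construction. Leaving out 1 library at a time gave 780 to 1044 transcripts higher and 1017 to 1203 lower, a share higher of 43.4% to 47.9%, 6 to 7 sterol genes, 11 to 14 S-phase genes, 46 to 47 histone genes, 12 NF-kB genes and 6 catecholamine genes. Under the other alternatives run, the NF-kB, histone and catecholamine counts stayed within 1.5 times their value, and no named gene changed direction. With 2 libraries a medium and 7930765 counts in the smallest, small changes in transcripts of few reads may not be detectable.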

Other observations

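Among the 38 tested histone members with the stem-loop pattern, 36 held the loop letters TTTTC and had log2 fold changes from -3.30 to -0.47 with a median of -2.44. The other 2, H3C6 and H4C13, held TTCTC and had log2 fold changes of 0.31 and -0.67. H4C5, with a log2 fold change of -0.47, held TTTTC. This was noticed after the values were seen, rests on 2 genes, and was not tested. With all tested genes in 5 bins of equal size, the median log2 fold change went from 0.083 in the bin of lowest GC content to -0.193 in that of highest, and from -0.07 in the bin of shortest genes to 0.083 in that of longest.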
